A study of Homo sapiens with 10 samples.

Results

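The comparison described here asks whether silencing p53 changed RNA levels differently in NCI-H2087 and in NCI-H441, both human lung cancer cell lines with a mutant p53. For every gene it takes the change with p53 siRNA in NCI-H2087 and subtracts the change with p53 siRNA in NCI-H441. It rests on 8 of the 10 libraries of the series, and 17978 of the 57736 gene IDs in the table had enough counts to be tested. A positive difference means that the change in NCI-H2087 lay above that in NCI-H441. A negative difference means that it lay below.

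NCI-H2087 carries the p53 substitution V157F and NCI-H441 carries R158L. Cells of each line received either a control siRNA or an siRNA directed at p53 by transfection, with n = 2 libraries for each of the 4 groups. The titles of the treated samples speak of a knockout, while the protocol names an siRNA, so the treatment is taken as a knockdown. Another line, NCI-H2110 with R158P, had 1 library per siRNA and is used only for reference, without a test. All groups share a mutant p53 and a transfection; no group had a p53 of normal sequence, and none was left untransfected. Each mutation was present in 1 line, so line and mutation cannot be told apart. Whether the 2 libraries of a group came from separate cultures is not stated, and p-values therefore measure only the spread between these libraries.

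p53 is a transcription factor that normally restrains cell division after DNA damage by activating genes such as the cell cycle inhibitor CDKN1A. Substitutions in its DNA-binding domain are frequent in lung cancer, often disable that function, and leave a protein that can accumulate. Mutant proteins have been reported to act on transcription through other factors, and whether they do so depends on the substitution and on the cell. A difference of changes is one way to set such dependence out gene by gene.

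Library totals ran from 18336672 to 25810934 counts. Both lines showed an epithelial lung profile in all 8 libraries. EPCAM, an epithelial adhesion molecule, was at 126 to 325 CPM (counts scaled to a common normalised library size), and NKX2-1, the lung lineage transcription factor, was at 150 to 338 CPM. Of 10 markers of immune and endothelial cells in the table, 5 had enough counts to be tested, and of 10 fibroblast markers, 4 did. The immune and endothelial markers were summed with raw library totals as the scale. Their sum was 146 and 170 against 252 and 349 CPM in NCI-H2087 (control, then p53 siRNA) and 91.5 to 125 CPM in NCI-H441. Most of it was CD68, a lysosomal protein abundant in macrophages. On the normalised scale CD68 was at 113 and 134 against 257 and 363 CPM in NCI-H2087, so these values are not parts of the sums. The leukocyte genes PTPRC, CD3E and MS4A1 had 22, 7 and 1 counts over all 10 libraries. The part of these markers in the results was not tested. One library stood apart in the number of genes with counts at very low levels, NCI-H441 control replicate 1. Among 49 genes that averaged at least 10 CPM in NCI-H2087 and had no count in the other 3 NCI-H441 libraries, 39 had counts in that library, at 0.362% of their level in NCI-H2087. With the lines exchanged, the NCI-H2087 libraries gave 1 of 11 and 4 of 14 genes with control siRNA, at 0.813% and 0.161% of the NCI-H441 level. With p53 siRNA they gave 0 of 10 and 1 of 11, the latter at 0.660%. In the NCI-H441 libraries other than control replicate 1 the count gave 1 of 11, 0 of 10 and 2 of 12 genes. Without that library or its pair the counts of calls given below changed, from 74 to 0 and from 1604 to 1069. In bulk RNA, fewer cells of a type and less RNA per cell cannot be told apart.

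The change differed between the lines for 74 genes, 0.412% of those tested, by edgeR's quasi-likelihood test at an adjusted p below 0.05 ("called" from here on). Of these, 43 had a positive difference (0.239%) and 31 a negative one (0.172%). Same-numbered libraries within a line varied together, and when that number entered the fit as a replicate block, 1604 genes were called (8.92%), 838 positive (4.66%) and 766 negative (4.26%). All 74 were among them. Of the 1604, 35 had under 20 counts summed over the 4 libraries of a line, and of the 74, 0 did. The number of calls depended on single libraries. Without the block it fell to 0 when any 1 of the 4 control libraries was left out, and with the block it was 106 without the second NCI-H441 pair. Values joined by "against" are control replicates 1 and 2, then p53 siRNA replicates 1 and 2. Both fits are given below, "without the block" and "with the block".

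Changes were more numerous and larger in NCI-H2087 than in NCI-H441. The differences are not adjusted for how far p53 was silenced in each line, so unequal silencing and an unequal response cannot be told apart. Within NCI-H2087 alone the change was called for 1560 genes without the block (8.68%, with 4.98% up and 3.69% down) and 4571 with it (25.4%). With library totals alone as the scale the balance turned, to 638 up and 1285 down without the block. Within NCI-H441 it was called for 1 gene (0.00556%) and 75 genes (0.417%). Over 9332 well-expressed genes the SD of the change was 0.548 log2 in NCI-H2087 and 0.273 log2 in NCI-H441, whereas the SD of the difference between the 2 pairs of a line was similar, at 0.356 and 0.342 log2. A change of at least 1 log2 was seen for 620 of these genes in NCI-H2087 and for 24 in NCI-H441. Across genes the changes of the lines were correlated with r = 0.298, which describes genes of the same libraries and carries no test.

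The called genes had the same form. All 43 genes with a positive difference without the block were called in NCI-H2087 and not in NCI-H441, with a median change of 2.41 log2 in the first line and 0.03 log2 in the second. The median difference was 2.22 log2, from 1.28 to 5.26. The changes of the 2 pairs of one line lay outside those of the other for 43 of the 43 and 31 of the 31, and for 56.1% of all genes tested. The calls were made from these same libraries, so this separation adds no support to them. As only 1 gene in all was called in NCI-H441 without the block, calls in NCI-H2087 alone were nearly given in advance. Of the 31 with a negative difference, 30 were called in NCI-H2087 alone, and the median changes were −2.34 and 0.12 log2. With the block the size of the change was larger in NCI-H2087 for 781 of the 838 positive and 717 of the 766 negative calls. Among all genes tested the share was 65.6%, counted in the fit without the block. Protein-coding genes made up 38 of the 43 and 29 of the 31, against 78.0% of all genes tested.

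**Figure D1:**
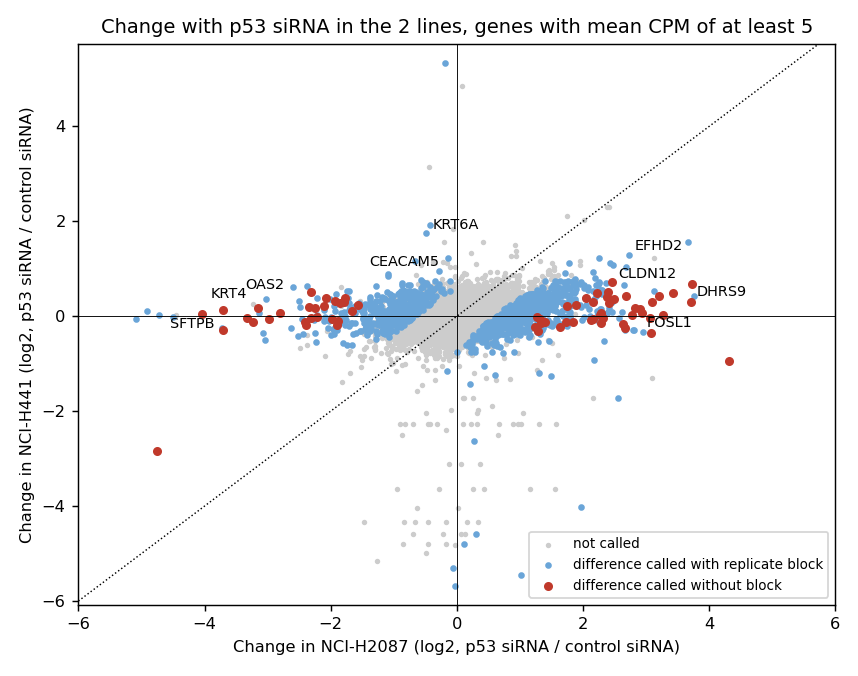
Change with p53 siRNA (log2) in NCI-H2087 on the horizontal axis and in NCI-H441 on the vertical axis, 1 point per gene with a mean of at least 5 CPM over the 8 libraries; the dotted line marks equal change. Genes called without the block (red) and with it (blue) spread along the horizontal axis, with most NCI-H441 changes near 0, and the columns of points below −2 on the vertical axis are genes with almost no counts in NCI-H441.

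Immediate targets and feedback genes of the ERK kinase pathway had the largest share of positive differences among the lists with at least 10 genes tested. ERK signalling induces the AP-1 transcription factors (FOS and JUN families) and, in return, the phosphatases and Sprouty proteins that damp it. Of 26 such genes tested, 4 were called without the block and 13 with it, all with a positive difference, and the median difference was 0.88 log2 against −0.03 log2 for all genes tested. The median change was 0.91 log2 in NCI-H2087 and 0.05 log2 in NCI-H441.

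FOSL1, the AP-1 subunit Fra-1, was at 106 and 76.3 CPM in the NCI-H2087 controls and at 756 and 636 CPM after p53 siRNA. In NCI-H441 it was at 538 and 584 CPM in the controls and 506 and 676 CPM after p53 siRNA. The NCI-H2087 libraries did not overlap between siRNAs and those of NCI-H441 did, and the knockdown libraries of NCI-H2087 stood near the level that NCI-H441 had throughout. The difference was 2.86 ± 0.30 log2 (SE; adjusted p = 0.0137).

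PHLDA1, a pleckstrin-homology protein induced by growth factor signalling, had the smallest p of all genes. It rose from 113 and 111 CPM to 602 and 825 CPM in NCI-H2087, and read 471 and 520 against 428 and 403 CPM in NCI-H441, a difference of 2.93 ± 0.25 log2 (adjusted p = 0.0102). DUSP5, a nuclear ERK phosphatase, went from 48.8 and 51.4 CPM to 254 and 458 CPM in NCI-H2087 and from 137 and 104 CPM to 154 and 119 CPM in NCI-H441 (2.65 ± 0.39 log2, adjusted p = 0.0298). IER3, an early response gene linked to cell survival, went from 10.8 and 14.5 CPM to 69.1 and 142 CPM in NCI-H2087, and its NCI-H441 libraries lay between 74.5 and 119 CPM (3.10 ± 0.48 log2, adjusted p = 0.0347). In NCI-H2087 the libraries of the 2 siRNAs did not overlap for any of these 4 genes, and in NCI-H441 no change was called. The genes were called from these same libraries, and only 1 gene in all was called in NCI-H441 without the block. Neither observation therefore adds support to the calls.

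The other called members were called only with the block. They were FOS, JUN, JUNB, the ERK phosphatase DUSP6, the inhibitor SPRY4, the ETS factors ETV4 and ETV5, EGR1 and the ephrin receptor EPHA2, with differences from 0.84 ± 0.19 log2 for ETV5 to 2.28 ± 0.51 log2 for EGR1. EGR1 rested on 1 library: it was at 17 and 21.4 CPM in the NCI-H2087 controls and at 29.2 and 215 CPM after p53 siRNA, while the NCI-H441 controls themselves read 777 and 131 CPM. FOS was uneven in NCI-H441 as well, at 93.1 and 18.3 CPM in the controls. FOSL2, JUND, SPRED2 and the cyclin CCND1 were among those not called, with differences with the block of 0.11, 0.15, 0.20 and 0.47 log2. FOSB, ATF3, DUSP4, SPRY1, SPRY2, SPRED1, SPRED3, EPHA4 and MYC were not called either. Without the block 22 of the 26 estimates of the list were above 0.

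**Figure D2:**
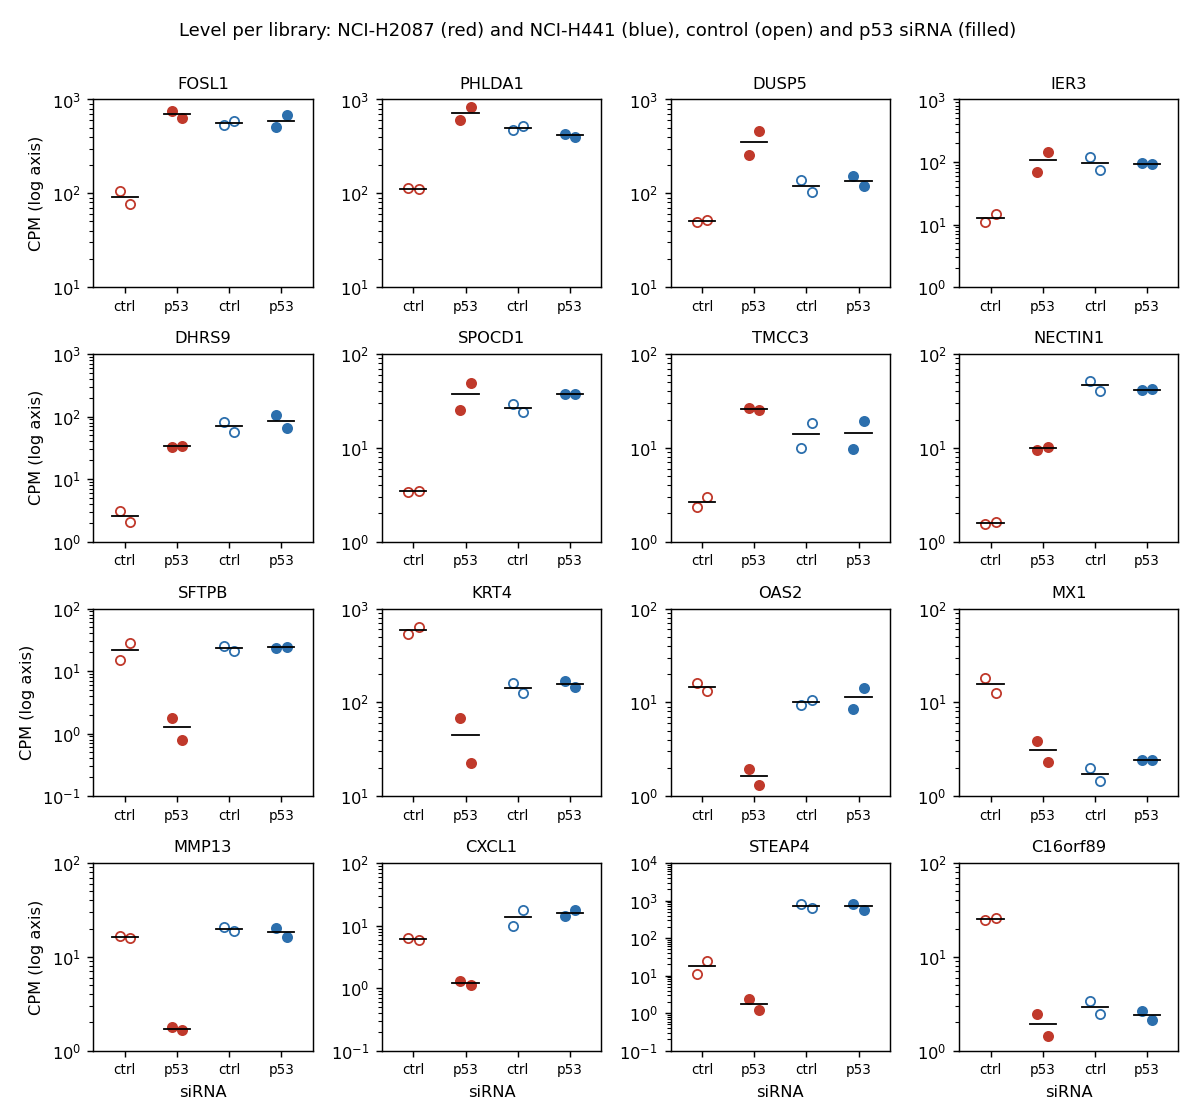
CPM per library on a log axis for 16 genes called without the block (points, libraries; bars, means of n = 2), with NCI-H2087 in red, NCI-H441 in blue, control siRNA open and p53 siRNA filled. In the upper 8 panels the filled red points lie above the open red points, in the lower 8 below, and the blue groups stay close to each other; FOSL1 reads 106 and 76.3 against 756 and 636 CPM in NCI-H2087.

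Genes of cell attachment, matrix breakdown and the cell cortex were described list by list. Among them, PLAU and ITGA2 had called positive differences without the block. PLAU, the urokinase that activates plasminogen at the cell surface, was at 138 and 167 CPM in the NCI-H2087 controls and at 1237 and 1361 CPM after p53 siRNA. In NCI-H441 it was at 586 and 956 against 660 and 1240 CPM (difference 2.79 ± 0.43 log2, adjusted p = 0.0355). The second NCI-H441 pair was higher than the first with either siRNA, so the groups overlapped there. ITGA2, the collagen-binding integrin α2, went from 140 and 166 CPM to 1229 and 1604 CPM in NCI-H2087. In NCI-H441 it went from 121 and 229 CPM to 188 and 282 CPM (2.78 ± 0.43 log2, adjusted p = 0.0355).

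Of 20 integrin and laminin genes tested, 6 had a called positive difference with the block and none a negative one, among them ITGA2, ITGA6, ITGB6 and LAMB3. Their median difference was 0.40 log2. Of 18 proteases and plasminogen system genes, 5 were positive, namely PLAU, its receptor PLAUR, the tissue activator PLAT, MMP14 and the collagenase MMP1, and 1 was negative. Their median difference was −0.0094 log2, with 9 of 18 estimates above 0. The negative one was MMP13, another collagenase, which moved the other way from MMP1 in NCI-H2087. MMP13 fell from 16.6 and 15.8 CPM to 1.79 and 1.65 CPM there and read 20.6 and 19.1 against 20.4 and 16.1 CPM in NCI-H441 (difference −3.11 ± 0.31 log2, adjusted p = 0.0137).

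Actin, focal adhesion and YAP-responsive genes had 12 positive and 2 negative calls with the block among 34 tested, none without it, and a median difference of 0.32 log2. The largest positive difference was that of the receptor tyrosine kinase AXL, at 24.4 and 27.0 against 106 and 146 CPM in NCI-H2087 and at 1.76 and 2.37 against 2.58 and 3.52 CPM in NCI-H441 (1.71 ± 0.27 log2 and adjusted p = 0.00113 with the block). Caveolae genes CAV1, CAV2 and CAVIN1, the focal adhesion genes ZYX and PXN and the cytoskeletal genes ACTG1 and TPM4 were among the other positive calls. AMOTL2, a YAP-induced scaffold that holds YAP back, and the myosin light chain MYL9 were the 2 negative ones.

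Of 28 epithelial junction genes, 3 were positive with the block (CLDN12, NECTIN1 and PKP2) and 2 negative (OCLN and ESRP2, a splicing regulator of epithelial cells). Their median difference was −0.18 log2, with 12 of 28 estimates above 0. OCLN, the tight junction protein occludin, read 188 and 187.5 against 105 and 101 CPM in NCI-H2087 and 186 and 194 against 191 and 149 CPM in NCI-H441 (−0.70 ± 0.20 log2, adjusted p = 0.0383).

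Annexins and S100 calcium-binding proteins had 7 positive calls and 1 negative call among 24. S100A2 went from 17.1 and 13.2 CPM to 64.7 and 67.4 CPM in NCI-H2087 and read 22.3 and 16.6 against 18.2 and 18.7 CPM in NCI-H441 (2.21 ± 0.30 log2, adjusted p = 0.0258), and S100A16 was called without the block too (1.66 ± 0.24 log2, adjusted p = 0.0298). Of 11 keratins, which form the intermediate filaments of epithelial cells, 5 were positive and 2 negative with the block. KRT7, KRT8, KRT18 and KRT19, the keratins of simple epithelia, were positive together with KRT15. KRT19 was at 68.5 and 77.5 against 310 and 448 CPM in NCI-H2087, and at 535 and 453 against 609 and 694 CPM in NCI-H441 (1.98 ± 0.29 log2, adjusted p = 0.0298).

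KRT4, a keratin of stratified mucosa, went the other way. It fell from 533 and 643 CPM to 67.8 and 22.4 CPM in NCI-H2087 and was at 162 and 125 against 170 and 145 CPM in NCI-H441, a difference of −3.84 ± 0.58 log2 (adjusted p = 0.0330). The keratins therefore did not share a direction within NCI-H2087.

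**Figure D3:**
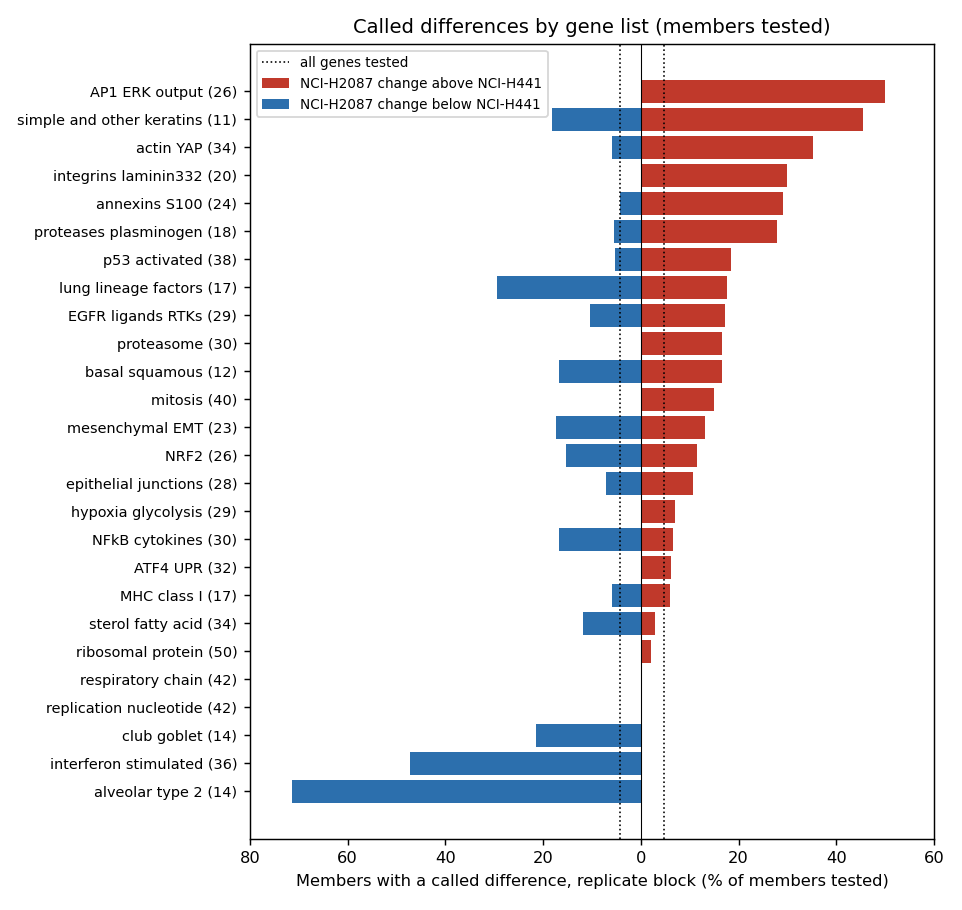
Share of the tested members of each gene list (number in brackets; lists with at least 10 tested) whose difference was called with the block, positive in red to the right and negative in blue to the left; dotted lines mark the shares of all genes tested, 4.66% and 4.26%. ERK and AP-1 genes (13 of 26) reach farthest to the right, and alveolar type 2 genes (10 of 14) and interferon-stimulated genes (17 of 36) farthest to the left.

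The negative side was led by secretory genes of the alveolus. Alveolar type 2 cells make pulmonary surfactant, and lung adenocarcinomas often keep part of their programme. Of 14 such genes tested, 10 had a called negative difference with the block, 1 of them also without it, and none a positive one, with a median difference of −1.49 log2. The median change was −1.32 log2 in NCI-H2087 and 0.23 log2 in NCI-H441.

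SFTPB, surfactant protein B, was at 15.1 and 27.8 CPM in the NCI-H2087 controls and at 1.79 and 0.803 CPM after p53 siRNA. In NCI-H441 it was at 25.7 and 21.2 against 23.6 and 24.8 CPM. The control levels of the lines overlapped, and after p53 siRNA those of NCI-H2087 lay far below every other library (difference −4.09 ± 0.52 log2, adjusted p = 0.0258). SFTPA1 fell from 584 and 641 CPM to 115 and 23.8 CPM in NCI-H2087 and read 1081 and 393 against 1131 and 415 CPM in NCI-H441 (−3.59 ± 0.49 log2, adjusted p = 0.000451 with the block and 0.216 without it). SFTPA2, a near-identical copy whose reads may not be separable from SFTPA1, read 108 and 116 against 22.7 and 4.65 CPM in NCI-H2087 and 799 and 314 against 999.6 and 423 CPM in NCI-H441.

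ABCA3, the lamellar body lipid transporter, LAMP3, the protease NAPSA, LPCAT1, HOPX, CTSH and SLC34A2 were the other negative calls, and MUC1 and SDC4 were not called (−0.26 and −0.03 log2). SLC34A2 was expressed at 376 to 729 CPM in NCI-H441 and below 1 CPM in NCI-H2087, so its difference rests on few counts. The surfactant genes SFTPC and SFTPD, the first of which defines mature type 2 cells, were below 0.5 CPM in every library of both lines.

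Transcription factors of the lung lineage divided. Of 17 tested, 5 were negative and 3 positive with the block. The negative ones were NKX2-1, which activates surfactant genes, with 321 and 338 against 245 and 180 CPM in NCI-H2087 and 212 and 150 against 243 and 158.4 CPM in NCI-H441 (−0.79 ± 0.21 log2, adjusted p = 0.0274), and CEBPD, SOX2, KLF5 and GRHL2. The positive ones were ETV5, SPDEF and SOX9, a factor of the distal lung bud, which read 1.19 and 2.37 against 9.62 and 7.27 CPM in NCI-H2087 and 5.28 and 8.40 against 5.08 and 8.59 CPM in NCI-H441 (2.23 ± 0.39 log2, adjusted p = 0.00270). None of these 8 was called without the block. Club and goblet cell genes had 3 negative calls among 14 (MUC4, MUC20 and SLPI) and no positive one.

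Genes induced by interferon, which limit virus replication, formed the second large negative group. Of 36 tested, 17 had a called negative difference with the block, 2 of them also without it, and none a positive one, with a median difference of −0.93 log2. The median change was −0.81 log2 in NCI-H2087 and 0.04 log2 in NCI-H441. Without the block 7 of the 36 estimates of the difference were above 0.

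OAS2, an enzyme that senses double-stranded RNA, was at 16 and 13.2 CPM in the NCI-H2087 controls and at 1.97 and 1.31 CPM after p53 siRNA. It was at 9.44 and 10.5 against 8.52 and 14.2 CPM in NCI-H441 (−3.33 ± 0.44 log2, adjusted p = 0.0258). MX1, a GTPase that blocks influenza viruses, read 18.3 and 12.7 against 3.89 and 2.32 CPM in NCI-H2087 and 1.97 and 1.44 against 2.42 and 2.45 CPM in NCI-H441 (−2.83 ± 0.49 log2, adjusted p = 0.0465). Here the knockdown brought NCI-H2087 down towards the level of NCI-H441, whereas for OAS2 it took the line below NCI-H441.

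The members called with the block also included IFIT1, IFIT2, IFIT3, MX2, OAS1, OAS3, OASL, ISG15, IFI6, IFI27, RSAD2, SAMD9L, PARP9 and the regulators STAT2 and IRF7. IFIT2 read 58.4 and 45.1 against 12.4 and 9.63 CPM in NCI-H2087 and 7.30 and 8.21 against 4.96 and 5.69 CPM in NCI-H441. The p53 siRNA libraries were the lower ones in both lines, though the NCI-H441 change was not called, and the difference was −1.69 ± 0.25 log2 (adjusted p = 0.000678 with the block, 0.0719 without it). Among 17 genes of MHC class I presentation, which interferon also induces, 1 was positive (TAP2) and 1 negative (ERAP2), and the median difference was −0.16 log2.

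Promoters of these genes are shown because the called members all had negative differences and many interferon-induced genes hold a known control sequence, the interferon response element. The motif GAAANNGAAA was searched on both strands in the window from 250 bases before to 50 bases after each gene start of RefSeq (GRCh38.p14). It was present in 7 of the 12 promoters that could be matched among the 17 genes called, and in 18 of 29 (62.1%) among all 36 tested, against 3.57% of 35116 promoters. The called genes thus held it no more often than the whole list. A match is a sequence, not evidence of binding. Of the members named by the rule for single genes and matched to a promoter, MX1 alone held the motif, just past its start, so OAS3, ISG15, IFI27 and IFIT1 are shown as examples picked after their values were seen. Each of these 4 promoters held a further copy. In ISG15 it overlaps the marked copy and stands whole in the window, partly in small letters. Those of OAS3, IFI27 and IFIT1 are not printed whole. The 4 windows below are printed 5′ to 3′ on the strand of the gene with the motif, or its reverse complement, in capitals; they lie at chr12:112938321-112938350 for OAS3, chr1:1013380-1013409 for ISG15, chr14:94110631-94110660 for IFI27 and chr10:89392497-89392526 for IFIT1.
OAS3: agaaagaaacGAAACTGAAAgcagggaatt
ISG15: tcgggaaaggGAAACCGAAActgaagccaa
IFI27: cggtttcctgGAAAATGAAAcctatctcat
IFIT1: ctagctttagTTTCACTTTCccctttcggt
In OAS3 the motif began 143 bases before the gene start, in ISG15 107, in IFI27 95 and in IFIT1 116. The AP-1 motif TGANTCA, searched in the same way, was in 4 of 28 matched promoters of the 43 genes with a positive difference (14.3%) and 2 of 19 of the 31 with a negative one (10.5%), against 7.71% of all promoters. It was in 3 of 29 promoters of the interferon list (10.3%) and in 0 of the 8 matched promoters of the 13 called ERK and AP-1 genes.

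Inflammatory genes under NF-κB control were divided, with 5 negative and 2 positive calls with the block among 30. CXCL1, a neutrophil-attracting chemokine, read 6.34 and 5.96 against 1.28 and 1.14 CPM in NCI-H2087 and 9.96 and 18 against 14.2 and 17.6 CPM in NCI-H441 (−2.52 ± 0.43 log2, adjusted p = 0.0455). CXCL3, IL6, ICAM1 and the inhibitor NFKBIA were the other negative ones. TNFAIP3, a deubiquitinase that restrains NF-κB, and the cytokine LIF were positive.

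Ligands and receptors of growth factor signalling moved both ways, with 5 positive and 3 negative calls with the block among 29 and none without it. AREG and EREG, ligands of the EGF receptor, were positive. AREG read 106 and 98.5 against 226 and 307 CPM in NCI-H2087 and 443 and 249 against 375 and 245 CPM in NCI-H441 (1.49 ± 0.21 log2, adjusted p = 0.000586 with the block and 0.165 without it). EGF itself was negative (−1.40 ± 0.32 log2, adjusted p = 0.0135), as was the receptor IGF1R (−0.80 ± 0.20 log2, adjusted p = 0.0205). Ligands of 1 receptor therefore differed in opposite directions.

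Genes of a mesenchymal state were split as well, with 3 positive and 4 negative calls with the block among 23. The matrix protein tenascin, TNC, was positive at 1.14 ± 0.19 log2, and the transcription factor SNAI1 at 1.57 ± 0.46 log2, while fibronectin, FN1, was negative at −1.06 ± 0.21 log2. FBN1, fibrillin, read 50.1 and 61.4 against 13.6 and 12.3 CPM in NCI-H2087 and was below 1 CPM in NCI-H441. Among 26 targets of NRF2, the factor of the oxidative stress response, 3 were positive and 4 negative. The subunits of glutamate-cysteine ligase, which starts glutathione synthesis, parted: the modifier GCLM was positive (0.87 ± 0.24 log2, adjusted p = 0.0324) and the catalytic GCLC negative (−0.87 ± 0.20 log2, adjusted p = 0.0140). Sterol and fatty acid synthesis genes had 4 negative calls, among them the regulator SREBF1 and the cyclase LSS, and 1 positive call, ELOVL6, among 34. None of the genes in this paragraph was called without the block.

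Genes that normal p53 activates were described from a list of 38. Of these, 7 were positive and 2 negative with the block, and 1 was called without it; the median difference was 0.18 log2. That gene was CDKN1A, which read 20.2 and 19.8 against 78.7 and 101 CPM in NCI-H2087 and 81.8 and 69.1 against 91.7 and 94.9 CPM in NCI-H441 (1.86 ± 0.25 log2, adjusted p = 0.0258). Silencing p53 was thus accompanied by a higher level of this p53 target in NCI-H2087. MDM2, the ubiquitin ligase of p53, GADD45A, PLK3, SFN, TRIAP1 and PMAIP1 were the other positive calls, and CYFIP2 was among the negative ones. TP63, a relative of p53 that marks basal cells, was at 7.22 and 13.3 against 2.09 and 1.69 CPM in NCI-H2087 and at 22.3 and 24.4 against 18.6 and 17.4 CPM in NCI-H441 (−2.02 ± 0.33 log2, adjusted p = 0.00150 with the block and 0.0740 without it).

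Housekeeping groups had no negative calls with the block, and the share of all genes tested with a positive call was 4.66%. Proteasome subunits had 5 positive calls with the block among 30 (16.7%), with a median difference of 0.50 log2 and 29 of 30 estimates above 0. Mitosis genes had 6 positive calls among 40 (15%) and a median of 0.40 log2, with 37 of 40 estimates above 0. Ribosomal proteins had 1 call among 50 and a median of 0.26 log2, and DNA replication and respiratory chain genes had none among 42 each. Without the block none of these genes was called. With library totals alone as the scale, the median of all genes moved from −0.03 to −0.15 log2, and these medians moved with it, to 0.37, 0.27 and 0.14 log2. The share of counts in nuclear copies of mitochondrial genes was 4.85% and 5.51% with control and 2.48% and 2.25% with p53 siRNA in NCI-H2087, and 5.74% and 3.94% with control and 5.16% and 4.77% with p53 siRNA in NCI-H441; its part in the differences was not tested.

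Among genes outside these lists, DHRS9, a short-chain dehydrogenase that can oxidise retinol, had one of the largest positive differences. It read 3.04 and 2.07 against 33.2 and 33.6 CPM in NCI-H2087 and 81.4 and 57.4 against 104 and 66.4 CPM in NCI-H441 (3.42 ± 0.40 log2, adjusted p = 0.0214). DHRS3, a retinaldehyde reductase, was negative, with 14.7 and 25.4 against 3.97 and 3.68 CPM in NCI-H2087 and 33.7 and 31.9 against 26.1 and 32.0 CPM in NCI-H441 (−2.22 ± 0.37 log2, adjusted p = 0.0455). These enzymes act in opposite directions on retinoids.

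NECTIN1, an adhesion molecule of epithelial junctions, went from 1.55 and 1.62 CPM to 9.57 and 10.2 CPM in NCI-H2087 and from 52.2 and 40.6 to 41.2 and 41.9 CPM in NCI-H441 (2.80 ± 0.29 log2, adjusted p = 0.0137). SPOCD1 read 3.40 and 3.47 against 25.4 and 49.0 CPM in NCI-H2087 and 24.2 to 37.8 CPM in NCI-H441 (2.95 ± 0.41 log2, adjusted p = 0.0275). TMCC3 read 2.32 and 2.98 against 26.3 and 25.4 CPM in NCI-H2087, and its NCI-H441 libraries differed by pair, at 9.96 and 18.4 against 9.63 and 19.3 CPM (3.25 ± 0.53 log2, adjusted p = 0.0438). HMGA1, a chromatin protein abundant in carcinomas, was among the most abundant of the called genes, at 678 and 664 against 2429 and 4016 CPM in NCI-H2087 and 1705 and 1590 against 1491 and 1857 CPM in NCI-H441 (2.24 ± 0.32 log2, adjusted p = 0.0298). In each case the control level of NCI-H2087 was the lowest of the 4 groups.

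Noncoding RNAs (lincRNAs, antisense and processed transcripts) made up 4 of the 43 genes with a positive and 1 of the 31 with a negative difference, against 12.9% of all genes tested. With the block they were 44 of the 838 positive and 52 of the 766 negative calls. LINC00973 read 6.55 and 5.54 against 41.2 and 60.8 CPM in NCI-H2087 and 6.82 and 16.6 against 7.13 and 11.3 CPM in NCI-H441 (3.43 ± 0.57 log2, adjusted p = 0.0455). MIR100HG, the host transcript of a microRNA cluster, and MANCR were called as well (2.35 ± 0.38 and 2.26 ± 0.27 log2, adjusted p = 0.0425 and 0.0214). MANCR read 7.37 and 8.14 against 50.6 and 49.1 CPM in NCI-H2087, with 15.7 and 17.6 against 20.2 and 24.5 CPM in NCI-H441.

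On the negative side, STEAP4, a metalloreductase, was expressed at very different levels in the lines. It read 11 and 24.8 against 2.39 and 1.18 CPM in NCI-H2087 and 797 and 648 against 829 and 578 CPM in NCI-H441 (−3.29 ± 0.56 log2, adjusted p = 0.0465). Its family member STEAP1 had a positive difference (1.86 ± 0.23 log2, adjusted p = 0.0227), from 36.4 and 37.0 to 115 and 113 CPM in NCI-H2087. PEG10, an imprinted gene derived from a retrotransposon, read 3381 and 3033 against 978 and 657 CPM in NCI-H2087 and 898 and 984 against 854 and 964 CPM in NCI-H441 (−1.92 ± 0.28 log2, adjusted p = 0.0302). GRHL1, a factor of epithelial barrier genes, read 86.3 and 107 against 18.8 and 17.7 CPM and 100.2 and 80.6 against 92.9 and 74.5 CPM (−2.29 ± 0.28 log2, adjusted p = 0.0214). C16orf89, the phosphatase ACP3 and the retinal transporter ABCA4 had large negative differences as well, of −3.41 ± 0.44, −2.91 ± 0.50 and −2.88 ± 0.48 log2 (adjusted p = 0.0258, 0.0495 and 0.0455).

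A smaller set changed in both lines, with the block, and more in NCI-H2087. It held 18 of the 838 genes with a positive difference. CLDN12, a tight junction claudin, read 92.4 and 112 against 525 and 598 CPM in NCI-H2087 and 149 and 140 against 258 and 216 CPM in NCI-H441, a difference of 1.75 ± 0.18 log2 (adjusted p = 0.0000670 with the block). EFHD2, an actin-binding calcium sensor, had changes of 2.73 and 1.28 log2 and a difference of 1.45 ± 0.20 log2 (adjusted p = 0.000524). The focal adhesion protein TNS4 (2.47 and 1.07 log2), TNFAIP3 (2.19 and 0.83 log2), the laminin chain LAMB3 (1.56 and 0.70 log2) and the membrane-binding annexin ANXA2 (1.77 and 1.12 log2) belonged to it too. The NCI-H2110 pair was above 0 for each of these 6 genes, but below 0 for KRT7 (−0.32 log2), another of the 18.

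Genes that changed in NCI-H441 and not in NCI-H2087 were few. With the block, 5 of the positive and 6 of the negative differences were called in NCI-H441 alone. KRT6A, a keratin of activated squamous epithelium whose reads can be shared with its near copies, rose in NCI-H441 from 5.75 and 9.47 CPM to 20.7 and 30.4 CPM. In NCI-H2087 it read 1.19 and 0.867 against 1.03 and 0.423 CPM (difference −2.31 ± 0.38 log2, adjusted p = 0.00167 with the block and 0.160 without it). KRT81 (−1.38 ± 0.27 log2) and S100A4 (−0.86 ± 0.21 log2) had the same form, and IGF2BP3, an RNA-binding protein of fetal tissues, fell in NCI-H441 from 13.4 and 10.2 to 8.07 and 5.93 CPM and read 282 and 292 against 331 and 339 CPM in NCI-H2087 (0.98 ± 0.20 log2, adjusted p = 0.00661).

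Opposite estimates in the 2 lines, counted with the block, needed an unadjusted p below 0.05 in each line by edgeR's test. They were found for 76 of the 838 positive and 124 of the 766 negative calls. For 16.6% of all genes tested the paired changes of the 2 lines had opposite signs. CEACAM5, the carcinoembryonic antigen, changed in opposite directions. It fell in NCI-H2087 from 270 and 342 CPM to 162 and 126 CPM and rose in NCI-H441 from 97.1 and 43.9 CPM to 170 and 92.8 CPM, each called with the block. In NCI-H441 the groups overlapped while each pair rose, and the difference was −2.03 ± 0.23 log2 (adjusted p = 0.000109 with the block and 0.159 without it). The other gene of this kind, NPIPA8, was below 1.5 CPM in every library. CEACAM6, a related adhesion molecule, read 2007 and 1841 against 1306 and 791 CPM in NCI-H2087 and 407 and 380 against 647 and 595 CPM in NCI-H441 (−1.58 ± 0.21 log2, adjusted p = 0.000309 with the block). Its NCI-H441 change alone was not called. The phospholipase LIPH and the GTPase MX2 had this pattern too, with differences of −1.50 ± 0.20 and −2.25 ± 0.28 log2. The Notch target HES1, the deubiquitinase STAMBPL1 and TM4SF19 had the reverse one, with estimates above 0 in NCI-H2087 and below 0 in NCI-H441 (differences of 1.76 ± 0.26, 1.51 ± 0.21 and 1.61 ± 0.21 log2).

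**Figure D4:**
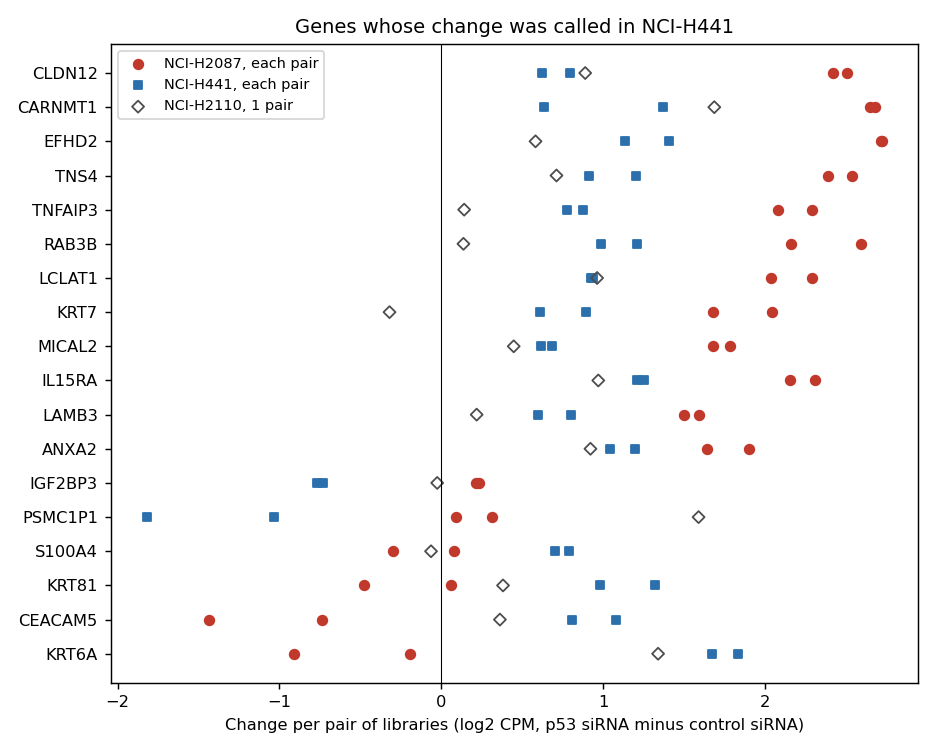
Change per same-numbered pair of libraries (log2 CPM, p53 siRNA minus control siRNA) for 18 genes whose change was called in NCI-H441 with the block: red circles, the 2 pairs of NCI-H2087; blue squares, the 2 pairs of NCI-H441; open diamonds, the single pair of NCI-H2110. In the upper 12 genes the red circles lie to the right of the blue squares and both above 0; CEACAM5 has red circles below 0 and blue squares above 0.

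The single NCI-H2110 pair gives a point of reference without a replicate. Of the 43 genes with a positive difference, 30 moved up in it and 8 moved up by at least 1 log2, which is 18.6% against 3.09% of all genes tested. These 8 were LINC01204, DHRS9, DOCK4, SPOCD1, ELL2, ITGA2, PLAU and PTHLH. Of the 31 with a negative difference, 24 moved down in it and 4 by at least 1 log2, which is 12.9% against 2.49% of all genes tested. Among the 4 were GALNT5, MX1 and KRT4, and the remaining gene is not reported here. Several of these genes were near the floor in NCI-H2110 (control, then p53 siRNA). LINC01204 was at 0.197 and 0.693 CPM, SPOCD1 at 0.197 and 0.520 CPM, GALNT5 at 0.197 and 0 CPM and MX1 at 1.06 and 0.477 CPM. The median change was 0.36 log2 for the positive and −0.34 log2 for the negative genes, against 0 log2 for all genes tested. The shares of all genes tested that moved up or down in this pair were not counted. For 0 of the 43 and 2 of the 31 the NCI-H2110 change was nearer to that of NCI-H2087 than to that of NCI-H441. The genes were called for a large change in NCI-H2087 beside a small one in NCI-H441, so a modest change falls nearer to NCI-H441. This count therefore does not show which line NCI-H2110 resembles, and the share over all genes tested was not counted. FOSL1 was at 22.2 and 23.5 CPM and PHLDA1 at 137 and 175 CPM with control and p53 siRNA in NCI-H2110, and CDKN1A at 59.1 and 117 CPM.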

How the data were processed

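The authors deposited whole-number counts for Ensembl gene IDs, 1 column per library; per the labels, libraries came from a Lexogen mRNA kit after RNeasy Plus extraction. The submitters' processing notes name Bowtie2, RSEM 1.2.12 and hg19 without role or order, and whether the counts are rounded RSEM estimates is not stated. Reference tables named 51959 IDs, GENCODE 29 another 342, and 5435 stayed unnamed. In R 4.3.3, edgeR 4.0.16 filtered weakly expressed genes with filterByExpr, grouping by line and siRNA into 6 groups (99.96% of counts kept), scaled by TMM, and fitted quasi-likelihood models with 1 mean per group to all 10 libraries (4 residual degrees of freedom; common biological coefficient of variation 19.8%). The difference of changes was tested two-sided as an interaction, with Benjamini-Hochberg adjustment over all 17978 genes. Errors are SE, n = 2 libraries per group, and counts limit precision for weakly expressed genes. The code was tested on simulated data.

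Replicate numbers were checked as a pairing: over 9332 genes the deviations of same-numbered libraries correlated at 0.534 (NCI-H2087) and 0.595 (NCI-H441), and between −0.11 and 0.23 across lines. This pairing came from the correlations, as the labels give only the number. A replicate block within each line left 2 residual degrees of freedom (coefficient of variation 12.1%). Replicates were not copies (chi-square per gene of 21.3 to 63.6). DESeq2 1.42.0, limma 3.58.1, other scalings, no filter and leaving out libraries were alternatives.

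Named genes are the 10 largest called differences each way in either fit (mean of at least 5 CPM, lines separate by pair), 6 each way among opposite changes and among larger changes in NCI-H441, and up to 4 members per list; list members given only by their call, and genes outside these rules, were chosen after their values were seen. Genes with under 20 counts in a line's 4 libraries are given only by their levels, and some genes are not reported here. The comparison and the 30 lists were chosen with earlier results of these data known.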

Additional observations from a re-analysis of the deposited data

Results flagged for a closer look

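The change with p53 siRNA differed between NCI-H2087 and NCI-H441, by a test of the difference itself, for 74 genes without the replicate block. Those named by the rule, with their differences in log2, are as follows. The gene ID ENSG00000132130, which has no symbol in the reference tables, had 5.26, with 2.42 and 2.00 against 28.7 and 59.4 CPM in NCI-H2087 and below 0.5 CPM in NCI-H441. LINC00973 had 3.43, DHRS9 3.42, TMCC3 3.25, IER3 3.10, SPOCD1 2.95, PHLDA1 2.93, FOSL1 2.86 and NECTIN1 2.80. POLR2J2 had 3.04, and its reads can be shared with near-identical copies. On the other side, SFTPB had −4.09, KRT4 −3.84, C16orf89 −3.41, OAS2 −3.33, STEAP4 −3.29, MMP13 −3.11, ACP3 −2.91, ABCA4 −2.88, MX1 −2.83 and CXCL1 −2.52. Each of these differences came from a change in NCI-H2087, and none of the NCI-H441 changes was called. As only 1 gene in all was called in NCI-H441 without the block, this was nearly given in advance.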

How the results depend on the processing

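Of the 74 calls, 0 were called with each of the 8 libraries left out in turn and 20 with none. The counts were 0 to 92 over these settings: 0 without each control library, 7 without the second p53 siRNA library of NCI-H2087, and 9 and 10 without those of NCI-H441. Each left a group of 1 library, assumed to vary like the others. The replicate block within lines gave 1604 calls, a block common to all lines 326, no filter on low counts 810, DESeq2 476 and limma-voom 31. Size factors of the RLE type gave 74. Library totals alone gave 86, of which 46.5% were positive in place of 58.1%. For NCI-H2087 the count of 1560 became 4571 with the replicate block within lines, 2504 with the common block and 2700 without the filter, and 177 to 1810 without single libraries. For NCI-H441 the count of 1 became 75 with the replicate block, 69 without the filter, 30 with DESeq2 and 0 to 2 without single libraries. Alternatives chosen after seeing the data kept the block: library totals gave 1724 calls, of which 33.8% were positive, RLE factors 1574, and leaving out one same-numbered pair 1976, 1101, 1069 and 106 (NCI-H2087 pairs 1 and 2, NCI-H441 pairs 1 and 2); 103 genes were called without each pair in turn. The sign of uncalled differences turned for TP73 (−1.38 to 0.28 log2 over the left-out libraries), LDHA (−0.043 to 1.23), TYMS (−0.082 to 1.10) and LUM (−2.39 to 0.25), each when an NCI-H2087 library was left out. The cause was not tested. With the block 35 calls had under 20 counts in the 4 libraries of a line.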

Other observations

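Neighbouring genes on chromosome 12 had almost no counts in NCI-H441. From PUS7L to SCAF11, in the gene order of GRCh38.p14, 10 genes had enough counts to be tested. Of these, 8 were at 2 CPM or more in every NCI-H2087 library, and all 8 were below 1 CPM in every NCI-H441 library, with a highest value of 0.515 CPM. ANO6, a membrane scramblase, was at 177 CPM or more in NCI-H2087, TWF1, an actin-binding protein, at 77.7 CPM or more, SCAF11 at 83.9 CPM or more, and ARID2, a chromatin remodelling subunit, at 37.5 CPM or more. In NCI-H2110 control cells ANO6 was at 114 CPM, TWF1 at 189.9 CPM and ARID2 at 44 CPM. TWF1, ANO6 and SCAF11 were called with the block, but their estimates rest on trace counts in NCI-H441 and are not read as results. In NCI-H2087, ANO6 read 177 and 232 against 183 and 218 CPM. There TWF1 read 92.6 and 77.7 against 184 and 160 CPM, and SCAF11 92.5 and 83.9 against 109 and 109 CPM. The highest NCI-H441 levels of TWF1, ANO6 and SCAF11 were in control replicate 1 (0.472, 0.515 and 0.258 CPM), the library described above as standing apart. In every other NCI-H441 library TWF1 and SCAF11 read 0 CPM and ANO6 at most 0.037 CPM. The part of control replicate 1 in these 3 calls was not tested.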
